A study of Mus musculus with 9 samples.

Results

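The 10 genes described here take part in or regulate the making of melanin, the pigment of skin, hair and eye, or serve the organelle that makes it. They were taken by symbol from a given list (Tyr, Tyrp1, Dct, Pmel, Mlana, Oca2, Slc45a2, Slc24a5, Gpr143 and Mitf), and all 10 were found among the 22587 genes of the tables and passed the filter on low counts. RNA sequencing was done on whole eyeballs of female wild-type BALB/C mice, an albino inbred strain, at postnatal day 56. Mice of the T.chuii group received intraperitoneal scopolamine together with 300 mg/kg by mouth of T. chuii, a green microalga (Tetraselmis chuii), those of the DES group received intraperitoneal scopolamine and water, and those of the CON group received water without an injection. Treatment began at 6 weeks of age and lasted 2 weeks, and each group had 3 libraries. Scopolamine, a blocker of muscarinic receptors, reduces tear secretion and serves to model dry eye. Because CON mice were not injected, the drug and the injection cannot be told apart. The labels name 15 mice but do not tie a library to an animal, so p-values rest on variation among libraries, some of which may be technical.

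Melanin is made from tyrosine inside melanosomes, organelles related to lysosomes. Tyrosinase carries out the first and limiting step, related enzymes shape brown-black eumelanin, a fibrous protein forms the scaffold on which pigment is laid down, and ion transporters set the conditions inside the organelle. In the eye the pigment-producing cells are the pigment epithelia of retina, ciliary body and iris, which come from the neural tube, and the melanocytes of choroid and iris, which come from the neural crest. An albino eye keeps these cells and their melanosomes but lays down no melanin, since tyrosinase does not work.

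Albino laboratory mice carry a change in a cysteine codon of Tyr, and BALB/c mice also carry the brown allele of Tyrp1, likewise a change in a cysteine codon. Both stretches are shown because they hold the lesions that make this strain albino and brown. The sequence is that of the reference genome (GRCm38 with GENCODE M21), not of BALB/C, on the coding strand, with the cysteine codon in capitals. The Tyr stretch is in exon 1 at chr7:87493018-87493068 (minus strand), and the Tyrp1 stretch is in exon 2 at chr4:80835377-80835427 (plus strand).
Tyr, reference allele: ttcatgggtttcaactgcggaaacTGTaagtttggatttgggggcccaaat
Tyrp1, reference allele: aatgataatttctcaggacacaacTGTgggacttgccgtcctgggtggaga
Counts per gene do not tell which base the libraries carried, so the alleles were not read here.

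Melanocyte genes are known targets of Mitf, a factor that binds a short element called the M-box, whose core reads TCATGTG, or CACATGA on the other strand. Of the 10 genes, 6 had an entry among the RefSeq promoters (GRCm38.p6, from 250 bases before to 50 bases after a transcript start), and 4 of these, Tyr, Tyrp1, Dct and Slc24a5, held the core. Among all 32851 such promoters, 3.77% held it. The 6 genes had 8 of these promoters between them, so counts by gene and shares by promoter are not like for like. The shorter CATGTG, which lies inside the core, was found in 5 of the 6 genes, Oca2 being the addition, and in 14.2% of all promoters, while CACGTG was found in none of the 6 and in 7.15% of all promoters. The promoter stretches with the core in capitals, on the strand of the gene, are shown because 4 of the genes share it.
Tyr, chr7:87493517-87493545 (minus strand): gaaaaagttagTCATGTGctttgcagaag
Tyrp1, chr4:80834155-80834183 (plus strand): tggggagggagTCATGTGctgcctagtag
Slc24a5, chr2:125068103-125068126 (plus strand): aggagactgctCACATGAttcagc
Dct, chr14:118052380-118052489 (minus strand): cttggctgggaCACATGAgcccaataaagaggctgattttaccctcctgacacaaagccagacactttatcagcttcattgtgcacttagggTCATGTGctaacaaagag
The core began 22 bases before the start in Tyr, 47 in Tyrp1, 13 in Slc24a5, and 232 and 151 in Dct. Another Tyrp1 transcript is annotated as starting further upstream. These matches describe letters and not bound sites.

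Library totals lay between 39.1 and 64.6 M reads. T.chuii 1, DES 1 and CON 2 stood apart, with corneal epithelium to rod ratios of 5.3, 3.27 and 5.02 in summed CPM, which are counts scaled to library size and composition, against 0.397 to 1.09 in the other 6. Summed lens markers lay between 11659 and 58359 CPM in T.chuii, between 367 and 42955 in DES and between 222 and 265 in CON. Skeletal muscle markers lay between 2201 and 10937, between 966 and 5360.1, and between 528 and 1401 CPM in the same 3 groups. Libraries of a group differed by more than sampling noise (chi-square per degree of freedom over genes of at least 32.7). The part of tissue composition in the results below was not tested.

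The message of this pathway was abundant in the albino eye. Together the 10 genes took 0.378%, 0.331% and 0.296% of all reads in T.chuii, 0.421%, 0.299% and 0.272% in DES, and 0.419%, 0.509% and 0.392% in CON. The Wilson 95% interval was 0.376% to 0.38% in T.chuii 1 and of like width elsewhere, and it covers counting error only. The share averaged 0.335% ± 0.0411 in T.chuii, 0.331% ± 0.0794 in DES and 0.44% ± 0.0613 in CON (SD, n = 3 each). All T.chuii shares lay below all CON shares, but the summed CPM of the 10 genes, which is scaled between libraries, overlapped (2819 to 4143 in T.chuii and 3715 to 5655 in CON). Dct, Pmel and Tyrp1 supplied between 83.4% and 90.5% of these reads in each library.

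Levels between genes were compared in FPKM, fragments scaled to transcript length and library size, as deposited. Dct, which encodes dopachrome tautomerase and was the most abundant of the 10, averaged 621 ± 134 FPKM (SD over 9 libraries) and ranked 89 among the 22587 genes. Pmel followed with 391 ± 151, Tyrp1 with 285 ± 57.8 and Mlana with 203 ± 42.4 FPKM. Below them were Slc24a5 with 68.6 ± 9.85, Slc45a2 with 18.2 ± 3.28 and Tyr with 14.8 ± 2.38 FPKM. Oca2 with 13.9 ± 2.44, Gpr143 with 12.1 ± 2.41 and Mitf with 4.21 ± 0.766 FPKM closed the order, Mitf ranking 9745. The order was not firm for every neighbour: Tyr was above Oca2 in 4 of 9 libraries, Oca2 above Gpr143 in 7 of 9 and Pmel above Tyrp1 in 8 of 9. The other neighbours kept their order in 9 of 9 libraries. The limiting enzyme was thus among the less abundant messages, and the raw count of any of the 10 in any library lay between 666 (Mitf) and 125161 (Dct).

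**Figure D1:**
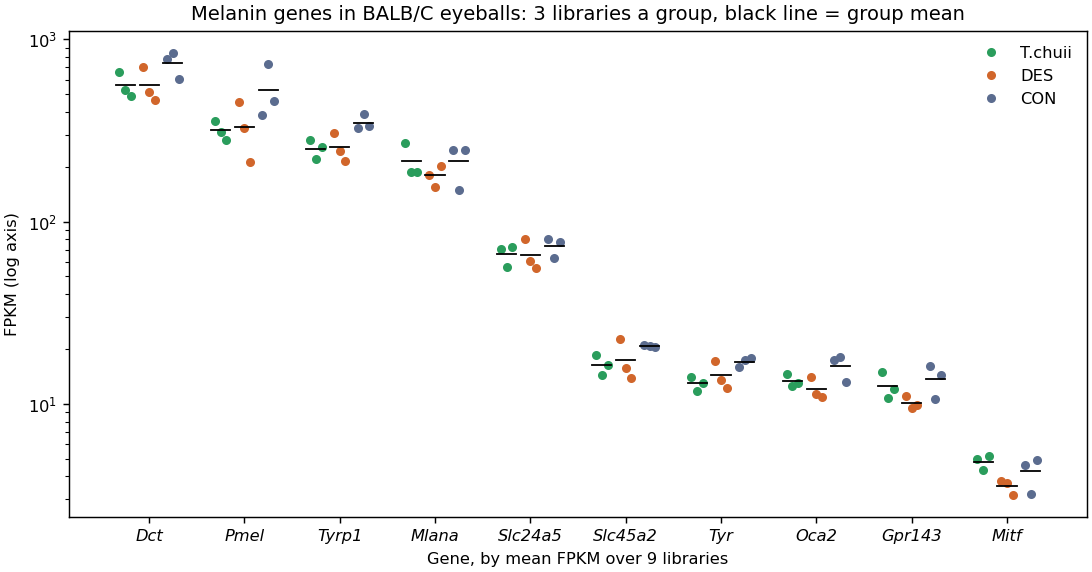
FPKM of the 10 genes on a log axis, with 1 point per library, T.chuii left of DES and DES left of CON, and black lines for group means. Dct averages 621 FPKM and Mitf 4.21 FPKM over the 9 libraries. T.chuii lies wholly below CON for Tyr, Tyrp1, Pmel and Slc45a2, as do 7.9% of all genes. Tyr, Tyrp1 and Slc45a2 keep nearly steady ratios to each other and are not separate observations. DES lies wholly below CON for Tyrp1 (2.7% of all genes), and T.chuii wholly above DES for Mitf (1.91%). In CPM, which carry the scaling for composition, none of the 10 lies wholly below CON in either comparison.

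Gene positions are given on mm10. Among the enzymes, Tyr (chr7:87424771-87493512, minus strand) encodes tyrosinase. It stood at 97.6, 77 and 76.9 CPM in T.chuii libraries, 114, 75.1 and 86.7 CPM in DES libraries, and 91.5, 118 and 104 CPM in CON libraries. DES 1 and CON 2 were high, and all groups overlapped in CPM. Tyrp1 (chr4:80834123-80851736, plus strand), a relative of tyrosinase that stabilises it and acts in eumelanin synthesis, stood at 876, 651 and 676 CPM in T.chuii, 919.6, 602 and 689.8 CPM in DES, and 845, 1186 and 876 CPM in CON. CON 2 was again highest and the groups overlapped in CPM, with DES 1 above 2 of the 3 CON libraries. Dct (chr14:118012790-118052246, minus strand), which converts dopachrome into a carboxylated indole, stood at 1747, 1322 and 1093 CPM in T.chuii, 1776, 1070.4 and 1247 CPM in DES, and 1701, 2155 and 1338 CPM in CON. Here the first T.chuii and DES libraries lay above CON 1, and DES 2 was lowest.

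Pmel (chr10:128695888-128720238, plus strand) encodes the protein that forms the fibrils of early melanosomes. Its level was 888, 765 and 591 CPM in T.chuii, 1080.4, 637 and 534 CPM in DES, and 787, 1777 and 957 CPM in CON. CON 2 stood far above the other 8 libraries, and Pmel had the widest spread of the 10 genes, 3.47-fold between its highest and lowest FPKM against 1.44-fold for Slc24a5. Mlana (chr19:29697541-29708447, plus strand), whose product helps Pmel mature, behaved otherwise: it stood at 198, 129 and 111 CPM in T.chuii, 127, 83.6 and 149 CPM in DES, and 151, 105 and 145 CPM in CON. CON 2, the library with most Pmel, had the least Mlana of its group. RefSeq places all 7114 bases of Cdk2 on the other strand within Pmel, with short overlaps for Rab5b and Dgka. Cdk2 was counted at 24.7 to 60.7 CPM. How strand was treated in counting is not stated in the labels, so the division of reads between these genes is uncertain.

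Of the transporters, Oca2 (chr7:56239593-56536518, plus strand) encodes a melanosomal chloride channel that helps raise the organelle's pH. Oca2 stood at 54.7, 44.7 and 40.4 CPM in T.chuii libraries, 49.9, 33.7 and 41 CPM in DES libraries, and 53.2, 65.6 and 41.4 CPM in CON libraries. CON 3 was about as low as T.chuii 3 and DES 3, so the groups overlapped. Slc45a2 (chr15:11000721-11029233, plus strand), a sugar and proton carrier of melanosomes, stood at 64.6, 47.4 and 47.8 CPM in T.chuii, 75.7, 43.3 and 48.6 CPM in DES, and 60.4, 71.1 and 59.8 CPM in CON. DES 1 was highest and the other DES libraries were low, so that DES reached past CON on both sides. Slc24a5 (chr2:125068127-125088677, plus strand), a potassium-dependent sodium and calcium exchanger, stood at 160.4, 121 and 139 CPM in T.chuii, 175, 109 and 129 CPM in DES, and 151, 139.9 and 147 CPM in CON. The CON libraries lay inside the range of both injected groups. Slc24a5 overlaps Myef2 (54.8 to 88.4 CPM) over 7703 bases on the other strand, with the same uncertainty as for Pmel.

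Gpr143 (chrX:152781921-152808651, plus strand) encodes a receptor of the melanosome membrane that controls melanosome size and number. It was at 28, 19.2 and 19.2 CPM in T.chuii, 19.9, 14 and 19.2 CPM in DES, and 25.1, 19.7 and 22.9 CPM in CON. DES 2 was lowest, and DES and CON overlapped by the narrow margin of DES 1 over CON 2. Mitf (chr6:97807002-98021360, plus strand), the transcription factor that directs the melanocyte programme and is also used by the pigment epithelium, was at 28.3, 23.7 and 25 CPM in T.chuii, 20.7, 16.5 and 18.4 CPM in DES, and 21.8, 17.8 and 23.5 CPM in CON. All T.chuii libraries lay above all DES libraries, and above all CON libraries by a small margin. In FPKM the T.chuii libraries (4.36 to 5.16) stayed above DES (3.18 to 3.77) but overlapped CON (3.22 to 4.94).

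DES against CON addresses the effect of scopolamine injection. Each of the 10 genes had a lower fitted mean in DES than in CON, and none passed the test (limma-voom, adjusted p at 0.05). Log2 changes lay between -0.62 (Pmel) and -0.11 (Slc24a5), with a median of -0.29 against -0.02 over all 21287 genes tested, of which 52.4% were lower. Among all genes 0% passed, and 1.1% (235 genes) had an unadjusted p under 0.05, against 0 of the 10. In CPM none of the 10 had groups that do not overlap, against 2% of all genes with DES higher and 1.65% with DES lower. In FPKM, which lacks the scaling for composition, Tyrp1 lay wholly lower in DES (306, 243 and 216 FPKM) than in CON (325, 387 and 333 FPKM), as did 2.7% of all genes, and none of the 10 lay wholly higher, against 1.34%. Limma-trend on log2 CPM and on log2 FPKM also called 0 genes. Pmel averaged 750.4 ± 290.4 CPM in DES and 1174 ± 529 CPM in CON (SD, n = 3 each), a log2 change of -0.62 ± 0.36 (SE; 95% interval -1.43 to 0.19, adjusted p = 1). Without CON 2 the Pmel change was -0.28. For Tyr the log2 change was -0.20 ± 0.22, with an interval from a fold of 0.621 to 1.23, so neither a moderate decrease nor a small increase lay outside it. In bulk tissue fewer pigment cells and less RNA per cell cannot be told apart.

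T.chuii against DES addresses the effect of the alga in mice that all received scopolamine, and it shares the DES libraries with the comparison above. Fitted means were higher in T.chuii for 8 genes and lower for Tyr and Slc45a2, with a median log2 change of 0.05 against -0.03 over all genes. Of all genes tested, 54.9% were lower. None of the 10, and 0% of all genes, passed the test, and the other limma fits on CPM and FPKM called 0 genes as well. Mitf alone had an unadjusted p under 0.05 (0.0438), as did 1.09% of all genes (233). It averaged 25.6 ± 2.35 CPM in T.chuii and 18.5 ± 2.11 CPM in DES (SD, n = 3 each), a log2 change of 0.47 ± 0.21 (SE; 95% interval 0.02 to 0.93, limma-voom adjusted p = 1), and was the 1 of 10 with T.chuii wholly above DES, as were 2.3% of all genes. None of the 10 lay wholly below, against 2.49% of all genes. In FPKM, too, Mitf alone lay wholly above (1.91% of all genes) and none of the 10 wholly below (1.68%). The Mitf change kept between 0.41 and 0.56 whichever single library was left out. Its direction could not turn in these fits, since every T.chuii library lay above every DES library. Changes of Tyrp1 (0.01 ± 0.25), Dct (0.03 ± 0.29) and Pmel (0.05 ± 0.36) had 95% intervals of -0.55 to 0.56, -0.62 to 0.68 and -0.74 to 0.84, or folds of 0.681 to 1.48, 0.652 to 1.6 and 0.6 to 1.79.

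T.chuii against CON sets injected and fed mice against mice with neither treatment, and it shares libraries with both other comparisons. Mitf (log2 change 0.29 ± 0.20) and Mlana (0.10 ± 0.29) were higher in T.chuii and the other 8 genes lower, with a median of -0.23 against -0.04 over all genes. Of all genes tested, 55.4% were lower. No gene of the 10, and 0% of all genes, passed with limma-voom or with the other limma fits, the smallest adjusted p of the 10 being 0.986. At an unadjusted p under 0.05 there were 0 of the 10 and 4.28% of all genes (912). T.chuii lay wholly above CON for Mitf in CPM, as for 5.45% of all genes, and wholly below in CPM for none of the 10, against 2.97% of all genes. The deposited FPKM gave another picture, with T.chuii wholly below CON for 4 of the 10 (Tyr, Tyrp1, Pmel and Slc45a2), against 7.9% of all genes, and wholly above for none, against 3.6%. Tyr, Tyrp1 and Slc45a2 kept nearly steady ratios to each other over the libraries, so they are not separate observations. Tyr stood at 14.1, 11.7 and 13.1 FPKM in T.chuii and 15.9, 17.5 and 17.8 FPKM in CON, and Slc45a2 at 18.6, 14.4 and 16.3 FPKM in T.chuii and 21.1, 20.9 and 20.5 FPKM in CON. The median log2 change of all genes was -0.12 on log2(FPKM + 0.1) in this comparison, and the limma fits on FPKM called none of the 10. Tyr averaged 83.8 ± 12 CPM in T.chuii and 105 ± 13.3 CPM in CON (SD, n = 3 each), a log2 change of -0.32 ± 0.22 (95% interval -0.81 to 0.17). Pmel was at -0.57 ± 0.36 (95% interval -1.37 to 0.24) and, without CON 2, at -0.22.

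**Figure D2:**
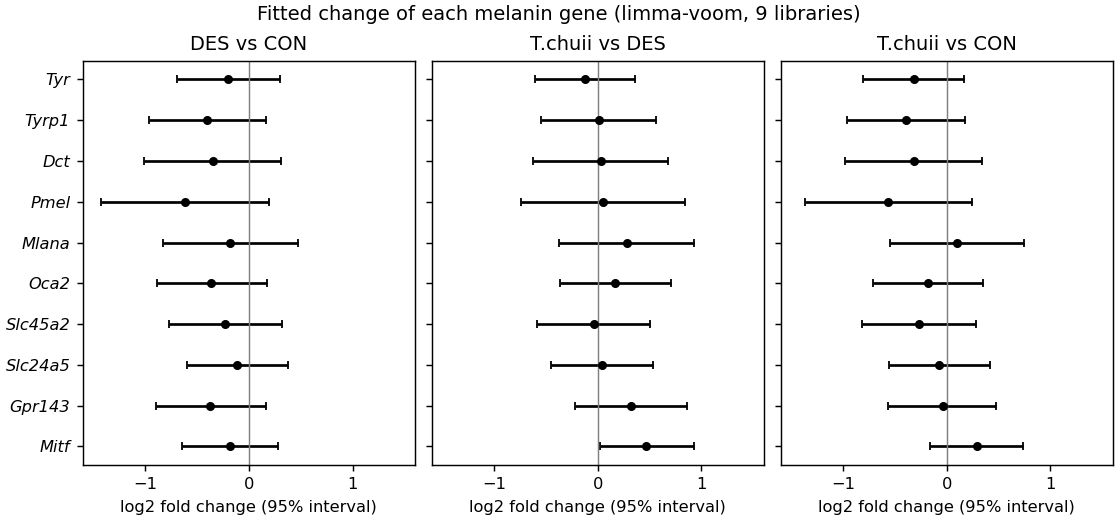
Log2 fold change of each gene in the 3 comparisons, with points for the limma-voom estimate and bars for its 95% interval. The interval lies above 0 for Mitf in T.chuii vs DES (0.02 to 0.93) and crosses 0 elsewhere.

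Although no group difference passed, the 10 genes did not vary alike from library to library. The steadiness of a pair's ratio was described by the SD over the 9 libraries of the log2 ratio of their CPM. This measure is 0 for a constant ratio and carries no test. It also depends on the spread of each gene, whose SD of log2 CPM lay between 0.21 (Slc24a5) and 0.53 (Pmel), with 0.25 for Tyr and Mitf. A gene that did not vary would score the other gene's own SD, so a low value alone need not mean shared movement. Tyr and Slc45a2 kept the steadiest ratio of the 45 pairs (SD 0.09, Tyr being 1.51 to 1.78 times Slc45a2 in CPM). Next came Dct with Oca2 (0.11), Tyr with Tyrp1 (0.11), Tyrp1 with Slc45a2 (0.12) and Tyrp1 with Dct (0.14). Gpr143 was closest to Mlana (0.16), then to Slc24a5 (0.19) and Mitf (0.20), and Mlana with Mitf was at 0.26. Tyr was looser with Mlana (0.38) and Mitf (0.36). Pmel and Mlana, scaffold protein and partner, were the loosest pair (0.65), Pmel being between 3.59 and 17 times Mlana in CPM. In the 6 libraries other than T.chuii 1, DES 1 and CON 2, Tyrp1 with Slc45a2 was at 0.03 and Tyr with Tyrp1 at 0.08. Pmel with Mlana was at 0.37 there, and Tyr with Mlana came down to 0.24. A smaller spread of the single genes over those 6 would lower such values too. There Gpr143 was closer to Tyrp1 (0.13) than to Mlana (0.16) or Mitf (0.23), so its place beside those genes rests on the 3 libraries left out.

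**Figure D3:**
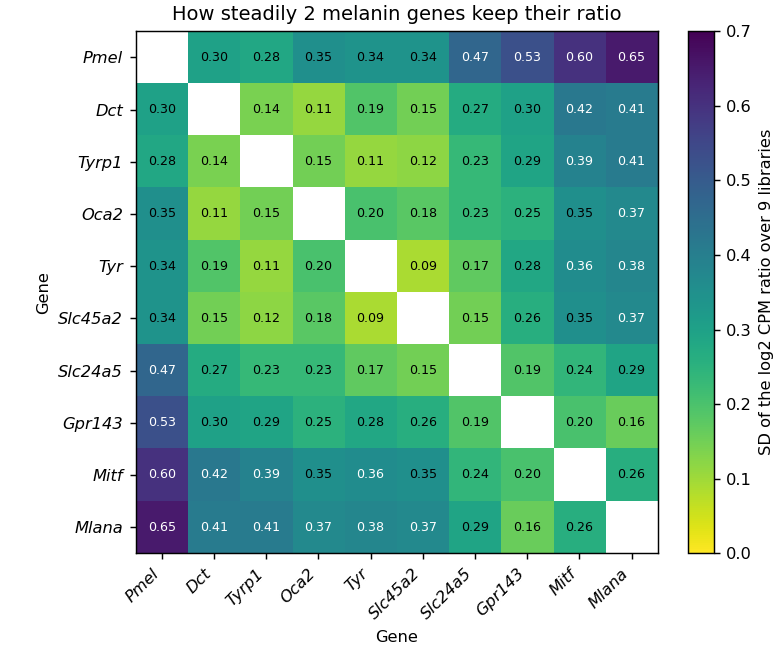
SD over 9 libraries of the log2 CPM ratio of each pair of genes, where a low value means a steady ratio. Tyr, Tyrp1, Dct, Oca2 and Slc45a2 form a block of low values (0.09 to 0.20), and Pmel with Mlana is highest at 0.65.

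Among the 17177 genes with a mean CPM of at least 1, Slc45a2 ranked 4, Tyrp1 ranked 5 and Slc24a5 ranked 217 in likeness to Tyr. Pmel ranked 6001, Mitf 6700 and Mlana 7410. The closest genes outside the 10 were Pctp (SD 0.054), which encodes a carrier of phosphatidylcholine, Tmed9 (0.092), a cargo receptor of the secretory pathway, and Aph1c (0.093), a gamma-secretase subunit, followed by 1810021B22Rik (0.117) and Gna13 (0.118), a G protein subunit. Seen from Slc45a2, Tyr was the closest of all genes. The mean log2 level of the 10 was most closely followed, outside the 10, by Srsf9, Calcrl, Anp32b, Cdv3 and Rab40b (0.10 to 0.12). With 9 libraries and so many genes compared, low values arise for many genes, and they say nothing of shared function.

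The marker genes of both kinds of pigment cell went in opposite directions in some libraries and together in others. Of the pigment epithelium markers 1 of 12 lay above its own mean over the 9 libraries in DES 1 and 2 of 12 in CON 2, where 6 of 7 melanocyte lineage genes did so. The reverse held in T.chuii 2 (9 of 12 epithelium and 2 of 7 lineage genes above), T.chuii 3 (11 of 12 and 1 of 7) and DES 3 (9 of 12 and 1 of 7). In T.chuii 1 it was 9 of 12 and 5 of 7, and in CON 1 12 of 12 and 7 of 7. DES 2 had 2 of 12 and 3 of 7, and CON 3 had 10 of 12 and 4 of 7. Of 12 retinal pigment epithelium markers, the vitamin A cycle and transport genes Ttr, Rgr and Rlbp1 were the most abundant, at 537, 325 and 254 FPKM, while Best1, a chloride channel of that epithelium, was near 0 at 0.122 FPKM. The 12 summed to 3647 to 5112 CPM in T.chuii, 1561 to 5269 CPM in DES and 1298 to 5139 CPM in CON, with DES 1 and CON 2 lowest. Rpe65, the retinoid isomerase that defines this epithelium and that is named here with its values already seen, stood at 700, 388 and 718 CPM in T.chuii, 148, 367 and 767 CPM in DES, and 733, 95.8 and 498 CPM in CON. DES 1 and CON 2, the libraries poorest in Rpe65, were the richest in Tyr and Tyrp1. Tyrp1 was 0.899 to 12.4 times Rpe65 in CPM, a 13.8-fold range, against 7.95 to 10 times Tyr. The SD of the log2 ratio of Tyr to Rpe65 was 1.25 over the 9 libraries and 0.46 without T.chuii 1, DES 1 and CON 2. The 3 most abundant markers were at 1.23 (Ttr), 1.09 (Rgr) and 0.68 (Rlbp1) with Tyr over the 9 libraries and at 0.40, 0.36 and 0.20 over the 6. Over those 6 the value of Rlbp1 with Tyr equalled that of Dct with Tyr (0.20). Tyr itself lay only between -0.30 and 0.18 from its mean in log2 CPM there. A gene that hardly varied could score about as low, so the value does not show that Rlbp1 moved with Tyr. The 12 markers did not move as one. In T.chuii 1, where 9 of 12 lay above their mean, Rlbp1 (-0.10 in log2 CPM), Otx2 (-0.47) and Best1 (-0.01) lay below. Rpe65 (0.79), Rgr (0.81) and Ttr (0.85) lay well above theirs there. Rlbp1 (-0.10, -0.76 and -0.82) and Otx2 (-0.47, -0.75 and -0.70) were lowest in T.chuii 1, DES 1 and CON 2. Those libraries also had the lowest summed rod markers (7698, 13615 and 14512 CPM). Whether Rlbp1, Otx2 or the other markers stood for this epithelium alone in whole eyeballs was not tested.

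**Figure D4:**
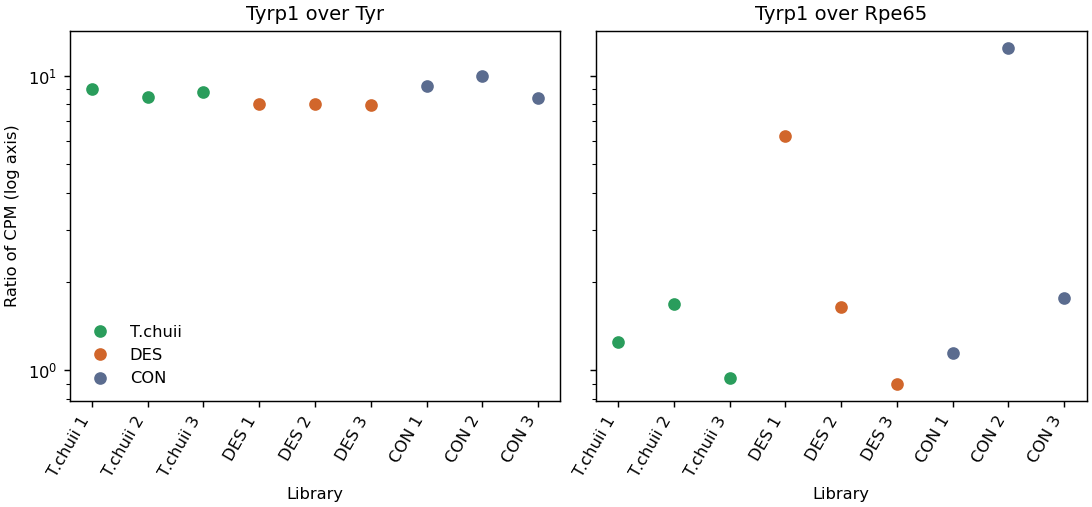
Ratio of Tyrp1 CPM to Tyr CPM (left) and to Rpe65 CPM (right) in each library, on a shared log axis and coloured by group. The ratio to Tyr keeps between 7.95 and 10, and the ratio to Rpe65 spans 0.899 to 12.4, highest in CON 2 and DES 1.

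The 7 genes of the melanocyte lineage summed to 159 to 255 CPM in T.chuii, 161 to 256 CPM in DES and 235 to 417 CPM in CON. Their most abundant members were Ednrb, the endothelin receptor that neural crest cells need to become melanocytes (38.2 ± 11.5 FPKM, SD over 9 libraries), the stem cell factor receptor Kit (6.46 ± 3.4) and Erbb3 (2.88 ± 1.48). CON 2 had the highest level of all 3. Ednrb moved closely with Tyrp1, at an SD of 0.14, and ranked 21 of 17177 genes in likeness to it, and its SD with Pmel was 0.21. Its likeness to other members was lower, at rank 1632 for Tyr, 7576 for Mlana and 9449 for Mitf. Erbb3 and Kit were looser with Tyrp1, at 0.45 and 0.46. Erbb3 was highest in CON 2, DES 1 and T.chuii 1 (42.6, 25.1 and 21.8 CPM), the libraries rich in corneal epithelium. Not all 7 went with Tyrp1: Sox10 lay below its mean in CON 2 (-0.14 in log2 CPM), where 6 of 7 lay above. Mc1r lay at -1.22 in T.chuii 1, where 5 of 7 lay above. Whether these 7 genes stood for melanocytes alone was not tested. Melanocyte lineage genes were lower in DES than in CON for 6 of 7 genes (median log2 change -0.45), in T.chuii than in DES for 4 of 7 (-0.06), and in T.chuii than in CON for 7 of 7 (-0.49), with 0 called by limma-voom. The pigment epithelium markers were lower in DES than in CON for 9 of 12 (median -0.10), higher in T.chuii than in DES for 12 of 12 (0.58) and higher in T.chuii than in CON for 11 of 12 (0.28), with 0 called. Over all genes, 52.4%, 54.9% and 55.4% were lower in these 3 comparisons, in that order. The part of either cell type in the levels of the 10 genes was not tested.

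**Figure D5:**
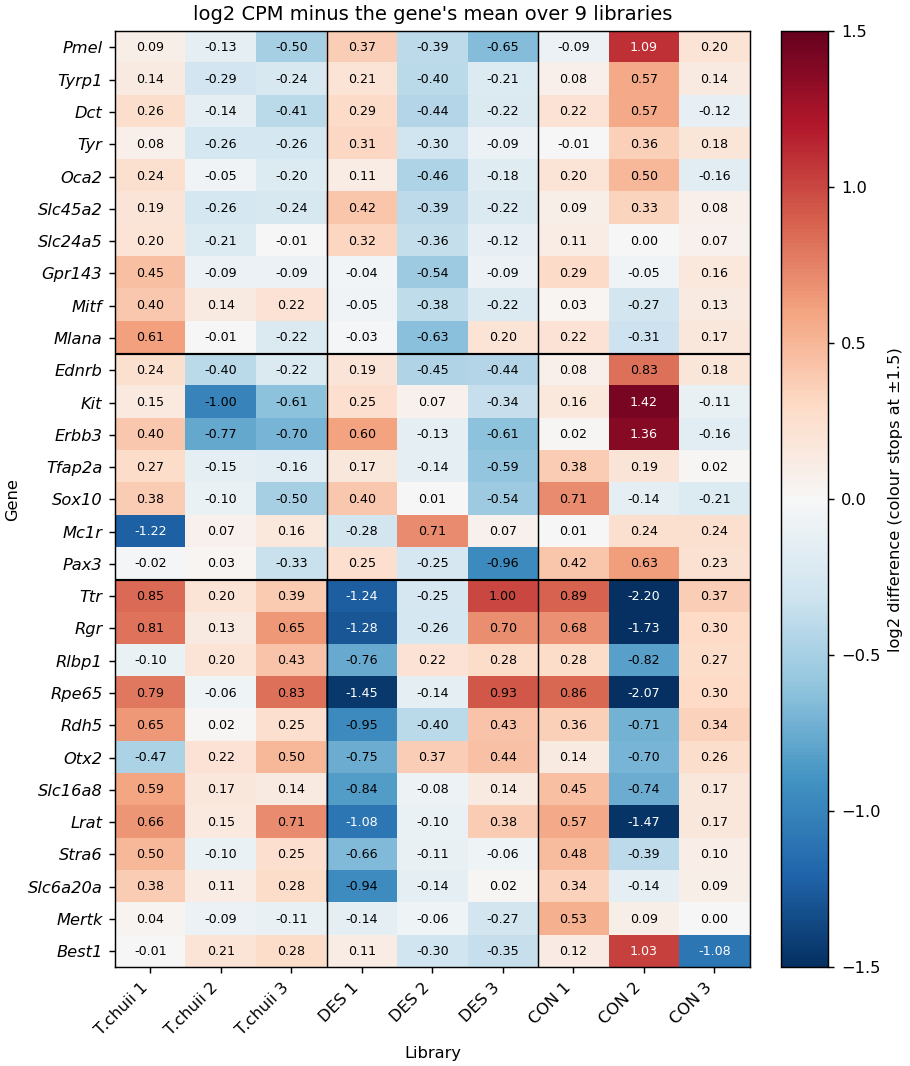
Log2 CPM minus the mean of the gene over 9 libraries, for the 10 melanin genes (top), 7 melanocyte lineage genes (middle) and 12 pigment epithelium markers (bottom), with T.chuii, DES and CON libraries from left to right. In CON 2, Pmel is highest of the melanin genes at 1.09 and Mlana lowest at -0.31, and 6 of 7 lineage genes lie above their mean (Sox10 at -0.14 does not). The pigment epithelium markers run from -2.20 (Ttr) to 1.03 (Best1) in CON 2. Best1 is near 0 at a mean of 0.122 FPKM, and Mertk, the next highest, is at 0.09. Of the 12 only these 2 lie above their mean there.

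Other genes of the melanosome were measured beside these, and 0 of them passed the test in any of the 3 comparisons. For the counts that follow, 52.4% of all genes were lower in DES than in CON. The share was 54.9% in T.chuii against DES and 55.4% in T.chuii against CON. The relatives of Mitf were Tfeb (6.64 ± 2.42 FPKM, SD over 9 libraries), Tfe3 (5.07 ± 1.16) and Tfec (0.307 ± 0.0842). By mean FPKM, Mitf at 4.21 was thus not the most abundant of its family in the whole eye. The order was not firm, since libraries ran from 3.2 to 11.1 FPKM for Tfeb, 3.53 to 7.16 for Tfe3 and 3.18 to 5.16 for Mitf. All 3 relatives were lower in DES than in CON (median log2 change -0.20), 2 of 3 were lower in T.chuii than in DES (-0.09), and 3 of 3 lower in T.chuii than in CON (-0.22). Of 4 proteins that cut or sort Pmel, Apoe and the tetraspanin Cd63 were abundant (1516 and 501 FPKM) and the protease Bace2 was at 17.6 FPKM. All 4 were lower in DES than in CON (median -0.33), and 2 of 4 were higher in T.chuii than in DES (0.15) and 2 of 4 in T.chuii than in CON (-0.17).

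Of 22 genes of the complexes and small GTPases that send cargo to melanosomes, led by the complex subunits Bloc1s1, Dtnbp1 and Snapin at 109, 57.8 and 51.8 FPKM, 11 were lower in DES than in CON (median log2 change -0.02), 18 in T.chuii than in DES (-0.14) and 17 in T.chuii than in CON (-0.19). Of 6 genes that move melanosomes, Mreg, Rab27a and the motor Myo5a led with 58.1, 13.2 and 4.99 FPKM, and 5, 4 and 4 of 6 were lower in the same 3 comparisons (medians -0.16, -0.04 and -0.20). Of 7 further transporters of melanosomes and lysosomes, led by Ostm1, Ctns and Clcn7 at 19.8, 7.71 and 7.61 FPKM, 5 of 7 were lower in each (medians -0.05, -0.08 and -0.12). Among ligands of melanocyte receptors, Edn3, which activates Ednrb, stood at 29.9 ± 9.18 FPKM, Pomc, the precursor of melanocortins, at 3.42 ± 1.48 and Kitl, the ligand of Kit, at 2.23 ± 0.385. Of these 3, 1 was higher in DES than in CON (median -0.10), 2 in T.chuii than in DES (0.13) and 2 in T.chuii than in CON (0.16).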

How the data were processed

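Per the labels' protocols, eyeballs were frozen on dry ice and stranded mRNA libraries were made from total RNA. Per the submitters' processing notes, StringTie 2.1.3b, HISAT2 2.1.0, Bowtie2 2.3.4.1, Trimmomatic 0.38 and FastQC 0.11.7 were used with genome build mm10. How reads were counted, and whether by strand, is not given in the sources. Per the file headers, each deposited table lists for every gene its FPKM and its read count. Rows have a varying number of cells, so both were read from the right end, and all counts were whole. Groups follow the sample titles.

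Library scaling used trimmed means of M-values (TMM). Genes reaching the CPM of 10 reads in a median library in 3 or more libraries and 15 or more reads over all libraries were kept (21287). The quasi-likelihood count test first planned was not run, because the irregular rows kept the count column from being accepted as counts. Limma-voom (limma 3.58.1, R 4.3.3), the planned fallback, was fitted to all 9 libraries with 3 group means and 6 residual degrees of freedom. Tests were two-sided, with Benjamini-Hochberg adjustment over all genes at 0.05. The fit was also run on simulated counts with known changes, and what it recovered is not given here. Alternatives were another scaling, no filter, limma-trend on log2 CPM or on log2(FPKM + 0.1) or log2(FPKM + 1), a replicate block, leaving out each library, and leaving out T.chuii 1, DES 1 and CON 2 together. CPM carry the scaling and SDs are over 3 libraries unless stated. Coordinates and overlaps come from RefSeq GRCm38.p6, the assembly of mm10. Of each gene list the 3 genes with the highest mean FPKM are named, and so are the 5 genes closest to Tyr and to the mean of the 10. The members and the 15 other lists were chosen with earlier results of these data known. Of 109 genes in these lists, 108 were found, and Asip was not analysed here. Python 3.11.15, pandas 2.3.3 and matplotlib 3.10.9 were used.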

Additional observations from a re-analysis of the deposited data

How the results depend on the processing

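None of the 10 genes passed the threshold in any of 16 alternatives, the smallest adjusted p of 480 values being 0.742, and 454 of the values kept their direction. Over all genes 0 were called in each comparison and alternative except that, without DES 2, 15 passed in DES vs CON and 17 in T.chuii vs CON, all higher, and that, without T.chuii 1, DES 1 and CON 2 together, 1 passed in T.chuii vs DES and 1 in T.chuii vs CON. The cause was not tested. Leaving out single libraries gave 0 to 15 called genes in DES vs CON, 0 to 0 in T.chuii vs DES and 0 to 17 in T.chuii vs CON. Directions that turned were those of small changes. On FPKM the T.chuii vs DES change of Tyrp1 was -0.02 with either pseudocount. Without the 3 libraries Slc45a2 was at 0.05 in T.chuii vs DES and Mlana at -0.32 in T.chuii vs CON. The 10 genes were then lower in DES than in CON for 10 of 10 (median -0.40), higher in T.chuii than in DES for 9 (0.10) and lower in T.chuii than in CON for 9 (-0.34). Leaving out single libraries, changes ranged in DES vs CON from -0.37 to 0.07 for Mlana and from -0.29 to 0.05 for Slc24a5. In T.chuii vs DES they ranged from -0.23 to 0.04 for Tyr, -0.12 to 0.17 for Tyrp1, -0.14 to 0.24 for Dct, -0.16 to 0.35 for Pmel, -0.18 to 0.20 for Slc45a2 and -0.08 to 0.23 for Slc24a5. In T.chuii vs CON they ranged from -0.14 to 0.27 for Mlana, -0.22 to 0.11 for Gpr143 and -0.17 to 0.10 for Slc24a5. The median of all genes in T.chuii vs CON was -0.12 on log2(FPKM + 0.1) against -0.04. The replicate block called 0 genes in each comparison. Same-numbered libraries deviated together with r from -0.38 to 0.57, over 0.1 in 5 of 9 pairs. The libraries rich in corneal epithelium also went together under unlike numbers (CON 2 with DES 1 and with T.chuii 1, each at 0.47). These values therefore do not settle whether the numbers in the titles pair the libraries. The file headers number the libraries otherwise, and that numbering was not used. With 3 libraries a group, the intervals of the 10 genes leave room for changes of well over the sizes fitted.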
